A study of Mus musculus with 1 sample.

Results

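Late neutrophil precursors were examined in a single-cell RNA library of mouse bone marrow progenitor cells. A cell counted as a member when, per 10000 of its own counts, it held at least 5 counts of Retnlg plus Mmp9 and at least 50 of Camp, had at least 500 genes detected and carried at most 20% mitochondrial counts. The cells were thus chosen by these measured values, so the levels of Retnlg, Mmp9 and Camp are descriptions and carry no test. The rule kept 406 of 10528 filtered cells. Retnlg plus Mmp9 ran from the threshold of 5 to 685 per 10000 in the members, with a median of 8.73, and Camp ran from 57.3 to 917, with a median of 499. Just inside the threshold, 83 members held 5 to 6 per 10000 (median 5.53), and just outside it 116 cells with Camp above its threshold held 4 to 5 (median 4.45). Another 12 cells passed for Retnlg plus Mmp9 while their Camp, at 2.96 to 27.7 per 10000, was too low.

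Neutrophils are made in the bone marrow from dividing precursors that load their granules in a fixed order. Primary, or azurophil, granules with myeloperoxidase and serine proteases come first, secondary granules with lactoferrin, cathelicidin and lipocalin follow, and gelatinase granules with matrix metalloproteinases form as the cell stops dividing. Retnlg encodes a secreted resistin-like protein of mouse neutrophils, Mmp9 encodes gelatinase B, and Camp encodes the cathelicidin precursor.

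The study sorted cells from the marrow of 1 naive mouse and 1 mouse injected with LPS, the lipopolysaccharide of bacterial outer membranes, and its design names Kit-positive lineage-negative progenitors and GMP-MoPs from both mice and cMoPs from the naive mouse. Strain, age and genotype of the mice are not given in the sources used here. The sorted populations were marked with 5 streptavidin barcodes, the hashtags A961 to A965, pooled, and sequenced from the 3′ ends of their transcripts as 1 library. The labels do not say which hashtag marks which population, mouse or treatment, so the comparisons below are between hashtags. Each hashtag is 1 sample, and all intervals cover counting error only; no p-value can be given.

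The members came almost entirely from the hashtags for which 15000 cells each had been loaded. A963 held 111 members among 4716 cells and A965 held 289 among 5567. A961, A962 and A964, loaded with 100 cells each, held 1 among 68, 3 among 104 and 2 among 73. As shares these were 1.47%, 2.88% and 2.74%, so the few members there go with the few cells. Median depth was 12873 counts per member in A963 and 21979 in A965, against 24198 over all filtered cells. The members' summed counts came to 1618454 and 6598886. The median member had 2325.5 genes detected and 1.23% mitochondrial counts.

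The hashtags also differed in sex-linked transcripts, measured in CPM, the counts summed over a set of cells and scaled to a common total. Xist, transcribed from the inactive X chromosome, was at 172 CPM in A963 members and 11.1 in A965 members, and the Y-linked genes together were at 11.1 and 45.5 CPM. Xist was counted in 50.5% of A963 members, compared with 80.5% of the A963 cells that passed for Camp but not for Retnlg plus Mmp9 and 90.8% of all A963 cells. The hashtag, the sex-linked transcripts and the depth differ together and cannot be told apart.

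Promoter windows of 5 genes are shown because the results turn on these genes. Retnlg helped choose the cells, Ltf and Ngp encode secondary granule proteins that were high in them, and Elane and Prtn3 encode azurophil proteases that were low. Each window runs from 250 bases before to 50 bases after the annotated start, on the plus strand of GRCm38.p6, as listed by RefSeq. Capitals mark the letters TTGCNNAA or TTNNGCAA, a core of the motif of C/EBP factors read on either strand, and AGGAAGT or ACTTCCT, a core of the PU.1 motif.
Retnlg, chr16:48872358-48872657: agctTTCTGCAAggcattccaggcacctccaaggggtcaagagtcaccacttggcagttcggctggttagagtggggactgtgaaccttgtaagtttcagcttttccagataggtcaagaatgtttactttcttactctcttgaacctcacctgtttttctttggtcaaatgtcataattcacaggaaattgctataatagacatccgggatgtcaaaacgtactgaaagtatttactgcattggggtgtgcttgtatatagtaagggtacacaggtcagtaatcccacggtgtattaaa
Ltf, chr9:111019042-111019341: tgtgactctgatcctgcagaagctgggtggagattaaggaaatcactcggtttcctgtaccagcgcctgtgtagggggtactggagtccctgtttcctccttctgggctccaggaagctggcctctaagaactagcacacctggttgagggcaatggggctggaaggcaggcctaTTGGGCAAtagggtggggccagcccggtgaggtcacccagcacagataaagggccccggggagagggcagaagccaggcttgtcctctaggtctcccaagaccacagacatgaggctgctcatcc
Ngp, chr9:110419558-110419857: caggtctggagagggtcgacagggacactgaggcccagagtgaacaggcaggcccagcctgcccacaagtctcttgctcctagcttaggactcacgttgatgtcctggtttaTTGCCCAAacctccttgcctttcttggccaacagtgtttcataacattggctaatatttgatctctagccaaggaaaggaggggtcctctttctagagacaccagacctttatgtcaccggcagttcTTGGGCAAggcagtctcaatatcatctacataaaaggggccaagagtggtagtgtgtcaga
Elane, chr10:79886062-79886361: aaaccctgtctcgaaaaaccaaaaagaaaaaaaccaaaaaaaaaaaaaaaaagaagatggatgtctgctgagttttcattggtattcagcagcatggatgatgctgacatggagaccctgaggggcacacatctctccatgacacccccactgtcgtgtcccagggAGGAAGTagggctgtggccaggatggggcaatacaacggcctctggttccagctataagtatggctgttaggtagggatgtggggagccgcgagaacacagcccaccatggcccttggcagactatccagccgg
Prtn3, chr10:79879417-79879716: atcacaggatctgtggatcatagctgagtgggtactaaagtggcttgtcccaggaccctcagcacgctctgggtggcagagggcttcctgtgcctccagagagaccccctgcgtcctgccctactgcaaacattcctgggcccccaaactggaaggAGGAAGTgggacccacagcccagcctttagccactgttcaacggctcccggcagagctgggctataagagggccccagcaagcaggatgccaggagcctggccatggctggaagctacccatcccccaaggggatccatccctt

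Of 13 windows searched, 4 held the C/EBP letters: Retnlg, Ltf and Lcn2 with 1 match each and Ngp with 2. Over all 32851 mouse promoter windows of the same length, 10.8% held them. The PU.1 letters lay in 6 windows, those of Elane, Prtn3, Mpo, Slfn4, Lrg1 and Ifitm6, compared with 9.35% of all windows. The Fpr2, Camp and S100a6 windows held neither set of letters. A match describes letters in a window and does not show that a factor binds there.

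The members carried the transcripts of their name, of which Retnlg and Mmp9 were part of the rule, so their shares follow from it. Retnlg was counted in 96.6% of members, Mmp9 in 59.6%, Fpr2 in 79.3%, Slfn4 in 63.3% and Lrg1 in 98.5%, at a median depth of 19140 counts per member. The same shares were 7.10%, 0.430%, 3.87%, 2.37% and 14.4% in 465 globin-high cells, which should lack these genes. Their median was 39441 counts. Cells that passed for Camp but not for Retnlg plus Mmp9 had Fpr2 in 42.2% and Slfn4 in 33.9%, at a median of 23262 counts. With every cell thinned to 8800 counts, the members' shares were 96.1% for Retnlg, 53.4% for Mmp9, 71.4% for Fpr2 and 97.3% for Lrg1, and Slfn4 was at 36.04% in A963 and 55.0% in A965. At that depth a count of Fpr2, Slfn4 or Lrg1 was held by 98.0% of members and by 92.4% of cells that passed for Camp alone. Holding any of these 3 is thus not particular to the members. Both Retnlg and Mmp9 were counted in 228 members, 14 had no Retnlg count, and 164 had no Mmp9 count.

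The sort label asks for Kit on the cell surface, and Kit RNA was low in these cells and unequal between hashtags. Kit, the stem cell factor receptor, was at 9.89 CPM in A963 members, where it was counted in 9.91% of cells, and at 0.758 CPM in A965 members, where it was counted in 1.38%. After thinning the shares were 5.41% and 0.692%. Camp-high cells of the same hashtags had Kit at 16.3 and 3.58 CPM. Ly6g, the surface protein by which mouse neutrophils are recognised, was counted in 97.3% of members, at 624 CPM in A963 and 440 CPM in A965. Itgam, the alpha chain of the Mac-1 integrin, was at 481 and 399 CPM. Cd3e, of T cells, had no count in any A963 or A965 member.

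Members took up a larger share of A965 than of A963. The share was 2.35% of A963 cells (95% Clopper-Pearson interval 1.94% to 2.83%) and 5.19% of A965 cells (4.62% to 5.81%), a ratio of 2.21 (1.78 to 2.74). Because A965 cells were deeper, the rule was also applied to cells thinned to 8800 counts, which gave 2.21% and 5.50% and a ratio of 2.49 (2.00 to 3.10). Cells that passed for Camp were 34.4% of A963 and 40.7% of A965. Among those, 6.83% of 1624 cells in A963 and 12.7% of 2267 in A965 were members, a ratio of 1.87 (1.51 to 2.30). The shares can be set by the sort as well as by the marrow, and these cannot be told apart. Scrublet, which scores cells for resemblance to simulated doublets, called 3 members and 145 of the 3532 cells that passed for Camp alone.

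**Figure D1:**
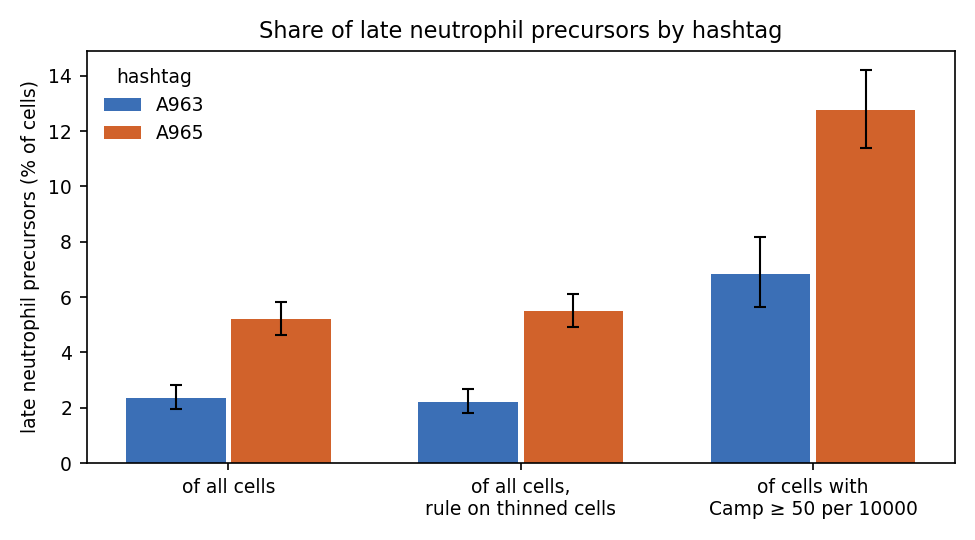
Share of cells (%) that met the rule in hashtags A963 and A965, of all cells, of all cells after thinning each to 8800 counts, and of cells with Camp at or above 50 per 10000. Bars are shares and lines are 95% Clopper-Pearson intervals for counting error; A965 is above A963 in each pair, with 5.19% against 2.35% of all cells.

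The first comparison asked how members differed from the 3532 Camp-high cells below the Retnlg plus Mmp9 threshold, called Camp-high cells here. Genes with at least 10 CPM in either set were compared, 10 CPM was added to both before the ratio, and a gene counted as apart at 2-fold. Of 6635 genes compared, 141 (2.13%) were apart, 48 (0.723%) higher in members and 93 (1.4%) lower. The sets were cut by measured values of these same cells, so these counts are a description and no reading follows from them. The median log2 ratio over all genes was -0.26. Median-of-ratios scaling moved that median to -0.03 and the counts to 81 higher and 32 lower, so ratios are read against this shift.

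The azurophil granule genes were the group furthest below. Of 8 genes, 7 were at least 2-fold lower in members, with a median log2 ratio of -2.36, and 7 were so under each alternative setting. Elane, neutrophil elastase, was at 277 CPM in members and 2343 CPM in Camp-high cells, a ratio of 0.118 (0.113 to 0.123). Mpo, myeloperoxidase, was at 125 and 941 CPM, Prtn3, proteinase 3, at 427 and 2389 CPM, and Ctsg, cathepsin G, at 48.7 and 375 CPM. Srgn, the serglycin core protein that packs granule contents, was at 132 and 673 CPM. In cells with at least 20 Fcnb plus Elane and under 50 Camp per 10000, an earlier stage of 1409 cells, Elane stood at 6832 CPM and Mpo at 5519 CPM. Member cells ranged widely for Elane, from 0 to 100.1 per 10000 with a median of 0.502.

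Most secondary granule genes, by contrast, were at or above the Camp-high level. Camp apart, 11 genes were compared, with a median log2 ratio of 0.45; 1 was past 2-fold. Ltf, lactoferrin, was at 10518 CPM in members and 5629 CPM in Camp-high cells, a ratio of 1.87 (1.86 to 1.88). Lcn2, lipocalin 2, was at 22719 and 14558 CPM, Ngp, neutrophilic granule protein, at 45946 and 33583 CPM, and Cd177 at 1512 and 982 CPM. Fcnb, ficolin B, went the other way, at 880 and 1541 CPM. The gene past 2-fold was Olfm4, olfactomedin 4, at 159 and 61.0 CPM, counted in 8.37% of members and 6.65% of Camp-high cells.

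Gelatinase granule genes were higher: 3 of 4 compared beside Mmp9 were past 2-fold, with a median log2 ratio of 1.41. Mmp25, a membrane-bound metalloproteinase, was at 114 CPM against 46.0, and Adam8, a sheddase, at 36.05 against 4.38. Mmp8, neutrophil collagenase, was at 164 CPM against 3.06, but only 86 of 406 members had an Mmp8 count and 45.8% of the 1367 counts lay in 10 cells. Hpse, heparanase, was at 18.4 and 23.7 CPM. In members Mmp9 itself was at 248 CPM in A963 and 240 CPM in A965, against 9.13 CPM in Camp-high cells.

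Among genes of late neutrophils, 5 of 14 compared beside Retnlg were past 2-fold higher, with a median log2 ratio of 0.66. Fpr2, a receptor for formylated peptides, was at 385 CPM in members and 81.3 CPM in Camp-high cells, a ratio of 4.74 (4.54 to 4.94). Fpr1, a related receptor, was at 48.4 and 2.93 CPM. Slfn4, of the Schlafen family, was at 137 and 37.0 CPM, Cxcr2, a chemokine receptor that draws neutrophils out of the marrow, at 137 and 57.4 CPM, and Ly6g at 479 and 198 CPM. Lrg1, a secreted glycoprotein, was at 793 and 492 CPM, within 2-fold. Csf3r, the receptor for granulocyte colony-stimulating factor, was at 73.5 and 68.3 CPM. Il1b, a cytokine of activated neutrophils, was at 2.75 CPM and counted in 1.72% of members, against 1.51% of globin-high cells. The median depth was 19140 counts in members and 39441 in globin-high cells. Shares at such unlike depth cannot show whether Il1b was above background.

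Protease inhibitors and membrane proteins completed the higher side. Of 9 stefin and antiprotease genes, 6 were past 2-fold higher (median log2 ratio 1.22). The 9 summed to 4348 CPM in members and 3152 in Camp-high cells, with medians of 34 and 27 counts per thinned cell. Counts of the 4 Stfa (stefin) genes lay in few cells. After thinning, 11.7% of A963 members and 10.3% of A963 Camp-high cells held one, and 40.5% and 20.9% did in A965. Slpi, secretory leukocyte protease inhibitor, was at 510 CPM against 178. Of 4 Ifitm genes, of the interferon-induced transmembrane family, 2 were past 2-fold, and 3 under median-of-ratios scaling. Ifitm6 was at 7362 CPM against 2728 and Ifitm1 at 215 against 61.8. S100a6, a calcium-binding protein, had the largest log2 ratio among the genes the naming rule chose, at 1595 CPM in members and 315 CPM in Camp-high cells (ratio 5.07, 4.97 to 5.18). The rule's other higher genes were Slfn1 (5.16-fold), Plbd1, AA467197, St3gal5, Ceacam10, Lgals3, Capg and Pirb, at ratios of 2.37 to 3.44 apart from Slfn1. Lgals3 encodes galectin 3, Capg an actin-capping protein and Pirb an inhibitory receptor.

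Other groups had few genes past 2-fold, but over all 6635 genes compared only 2.13% were. Counts this small in short lists are not read as a result about these groups. The NADPH oxidase genes, which make the respiratory burst, had 0 of 6 past 2-fold and a median log2 ratio of 0.23. Of 10 neutrophil transcription factors compared, 1 was past it, Irf8, a factor of monocyte and dendritic cell development, at 15.8 CPM against 42.5. Cebpe, which drives secondary granule genes, was at 627 and 643 CPM. Calr, calreticulin, was the 1 of 12 chaperones past 2-fold lower, at 80.1 and 182 CPM. The rule's remaining lower genes were Nkg7, Ms4a3, Igfbp4, Prss57, Gstm1, Nme1, Dut, Mif, Mt1 and Hsp90aa1, at ratios of 0.204 to 0.377. Dut makes nucleotides safe for DNA synthesis and Hsp90aa1 is a chaperone.

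Markers of other cell types were low in members. The 10 erythroid genes summed to 257 CPM in members and 652 CPM in Camp-high cells. Per thinned cell the median was 2 counts in both sets, with highest cells at 92 and 616. Of 7 compared, 5 were past 2-fold lower, 2 under median-of-ratios scaling and between 0 and 5 across alternatives. The 12 monocyte genes summed to 2801 and 3056 CPM, of which Ly6c2, shared with neutrophil precursors, made up 2697 and 2876. Csf1r, the receptor that marks monocytes, was at 6.83 and 8.27 CPM. The 6 eosinophil genes summed to 8.62 CPM and the 8 stem cell genes to 26.3 CPM in members. Epx, Fcer1a and Mecom, of eosinophils, mast cells and stem cells, had no count in them. Their part in the differences above was not tested.

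Against the earlier stage, 35.3% of 8052 genes were past 2-fold, 4.84% higher in members and 30.5% lower, again between sets cut by measured values. All 8 azurophil genes were lower than in the earlier stage and all 11 secondary granule genes compared were higher. Elane, among these 8, helped choose the earlier stage, as did low Camp. These directions thus follow in part from how the cells were chosen.

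The same genes were examined within each hashtag. All 30 genes named by the rule lay on the same side of 1 within A963 and within A965. Past 2-fold were 29 in A963 and 30 in A965. The genes were picked from these same cells, since A963 and A965 gave 400 of the 406 members. Their agreement was thus largely built in and is no separate check. Within A963, 3.94% of 6875 genes were past 2-fold, 0.829% higher and 3.11% lower, and within A965 2.13% of 6570, 0.715% higher and 1.42% lower. Of 6384 genes compared in both, 54 were higher in A963 and 43 in A965, with 33 in both, 61.1% and 76.7% of each list. On the lower side 202 and 93 were apart, with 47 in both, 23.3% and 50.5%.

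Transcripts of dividing cells were lower in members, and lower again where Retnlg plus Mmp9 was higher. Cells were scored at 8800 counts each by whether they held at least 3 counts of 10 G2/M genes, such as Mki67, Top2a and Ccnb1, and at least 3 of 12 S phase genes, such as Pcna and the Mcm helicase genes. The G2/M share was 91.8% in Camp-high cells and 57.9% in members (52.9% to 62.7%). The S phase share was 89.1% and 46.6% (41.6% to 51.5%). Without thinning, the shares in members were 66.5% and 61.1%, and in Camp-high cells 95.6% and 93.1%. From the lowest to the highest of 4 bins, cut at 10, 20 and 50 Retnlg plus Mmp9 per 10000, the G2/M score was met by 173 of 236, 48 of 96, 10 of 53 and 4 of 21 cells. The S phase share was 60.2%, 36.5%, 15.1% and 19.0%. Unthinned G2/M shares were 81.4%, 56.3%, 30.2% and 38.1%, in the same order of bins. The 2 highest bins did not differ beyond their counting error.

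As summed levels, S phase genes stood further below than G2/M genes. Of 12 S phase genes, 7 were past 2-fold lower in members, with a median log2 ratio of -1.01, and 0 of 12 were under median-of-ratios scaling. Pcna, the sliding clamp of DNA replication, was at 161 CPM in members and 359 CPM in Camp-high cells, and Mcm5 at 101 and 244 CPM. None of 12 G2/M genes was past 2-fold (median -0.54). Top2a, topoisomerase II alpha, was at 113 and 221 CPM and Mki67 at 190 and 354 CPM.

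**Figure D2:**
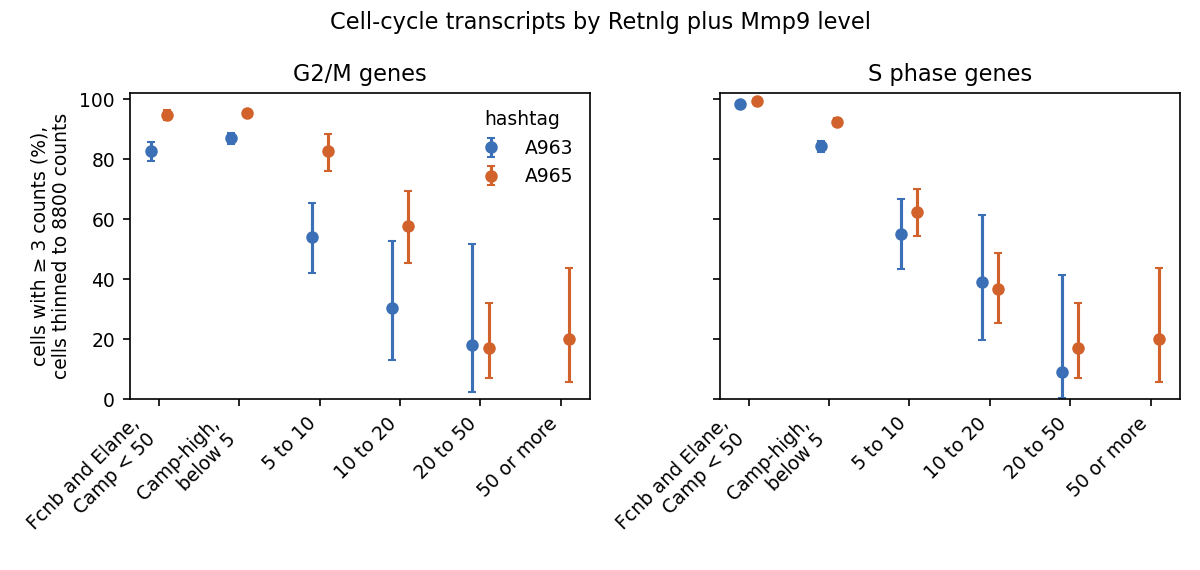
Share of cells (%) with at least 3 counts of G2/M genes (left) or S phase genes (right) after thinning each cell to 8800 counts, by Retnlg plus Mmp9 per 10000 and hashtag; points are shares and lines 95% Clopper-Pearson intervals, and the single A963 cell of the highest bin is not drawn. In A965 the G2/M share is 82.8% at 5 to 10 and 17.1% at 20 to 50.

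Within the members, several genes followed the Retnlg plus Mmp9 bins, which is a description because the bins use the rule's own values. In A965, with 157, 71, 41 and 20 cells, S100a6 was at 1180, 1997, 2642 and 5396 CPM from the lowest bin to the highest. Mmp8 was at 7.08, 72.3, 369 and 1819 CPM and was counted in every one of the 20 cells of the highest bin. Fpr2 was at 244, 421, 874 and 680 CPM, highest in the third bin. In A963, with 76, 23 and 11 cells in the first 3 bins, S100a6 was at 590, 591 and 1551 CPM, Mmp8 at 46.4, 233 and 585 CPM, and Fpr2 at 283, 401 and 678 CPM. Both hashtags thus had their higher S100a6, Mmp8 and Fpr2 levels in the third bin rather than the first.

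Pcna ran the other way, at 210.0, 125, 20.1 and 24.7 CPM in A965 and 229, 159 and 15.6 CPM in A963. Elane was at 308, 124, 83.0 and 911 CPM in A965, so the highest bin broke its order. In that bin Elane was counted in 9 of 20 cells, Mpo was at 390 CPM, and Camp was at 28208 CPM against 45910 in the lowest bin. The 8 azurophil genes together had a median of 3 counts per thinned cell there, as in the bin below. Their upper quartile was 7 and the highest cell held 268, so the rise lay in few cells. Cxcr2 was at 420 CPM in the highest bin of A965 and 120 CPM in the lowest. Median depth in A965 was 22887 counts in the lowest bin and 14639 in the highest.

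**Figure D3:**
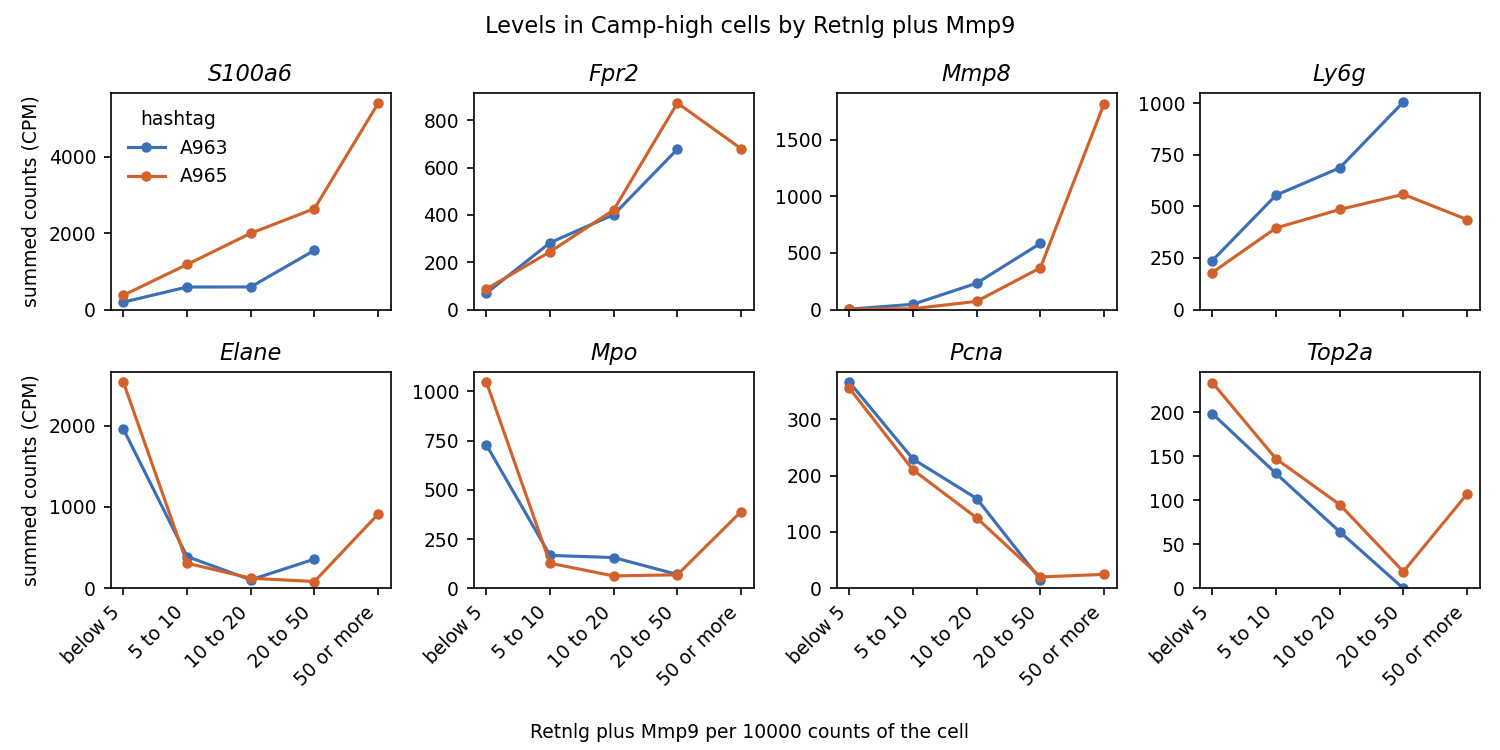
Summed level (CPM, linear axes from 0) of 8 genes in Camp-high cells below the threshold and in members by Retnlg plus Mmp9 per 10000, for hashtags A963 and A965; points are single summed values with no replicate, and the A963 bin of 1 cell is left out. S100a6 reaches 5396 CPM in the highest A965 bin, and Pcna is at 355 CPM below the threshold and 20.1 CPM at 20 to 50.

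No gene tracked Retnlg closely from cell to cell. Over 3182 genes counted in at least 25% of members, Spearman correlations with Retnlg in thinned cells were averaged over 111 A963 and 289 A965 cells, which share a library. The highest means were 0.185 for Ptprc, the CD45 antigen, 0.172 for Hk3, a hexokinase, and 0.172 for Samhd1. Correlations this weak in sparse counts are not read as a likeness.

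The second comparison was between hashtags within the members, 111 cells of A963 and 289 of A965. Of 6253 genes compared, 585 (9.36%) were at least 1.5-fold apart, 222 (3.55%) higher in A965 and 363 (5.81%) lower, with a median log2 ratio of -0.07. Median-of-ratios scaling gave 268 higher and 284 lower. In Camp-high cells of the same hashtags, where far more cells were summed, 114 of 6758 (1.69%) were apart, 1.01% higher and 0.681% lower. The groups are read against the 9.36%, in which the A963 sum rests on 111 cells.

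The Ifitm genes were higher in A965 as a group. All 4 were past 1.5-fold, with a median log2 ratio of 0.91, and between 2 and 4 of them were across the alternative settings. Ifitm3 was at 922 CPM in A963 members and 1845 CPM in A965 members, a ratio of 2.00 (1.90 to 2.11). Ifitm2 was at 730 and 1296 CPM, Ifitm6 at 5148 and 7913 CPM, and Ifitm1 at 77.2 and 250 CPM. Ifitm1 was counted in 19.8% of A963 and 52.2% of A965 members. The same 4 genes were past 1.5-fold in Camp-high cells of these hashtags (median log2 ratio 1.12), Ifitm3 at 434 and 1282 CPM, so the difference is not particular to the members.

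Other interferon-stimulated genes had 0 of 6 compared, of 16 listed, past 1.5-fold higher and 3 lower. Across alternatives between 0 and 3 were higher and between 0 and 4 lower, so neither count is firm. Among the lower ones, Bst2, tetherin, was at 33.98 CPM in A963 and 11.5 CPM in A965 (ratio 0.339, 0.236 to 0.489), on 55 and 76 counts. Irf7, a transcription factor of the interferon response, was at 16.7 and 7.12 CPM on 27 and 47 counts. In Camp-high cells Irf7 was at 4.74 and 4.46 CPM, and 0 of 5 genes of the list compared there were past 1.5-fold. Receptors and adaptors of LPS sensing had 0 of 6 past 1.5-fold, with 0 to 3 lower across alternatives, and Tlr4, the LPS receptor, was at 9.27 and 7.27 CPM. None of 4 NF-kappa B and inflammatory genes compared was past it, with 0 to 1 higher and 0 to 4 lower across alternatives. Nfkbia, an NF-kappa B inhibitor that the pathway induces, was at 180 and 134 CPM.

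Among late neutrophil genes other than Retnlg, 3 of 14 compared were past 1.5-fold higher in A965 and 0 lower. With Retnlg in the list, between 2 and 6 were higher and between 0 and 4 lower across alternatives, so neither count is firm. Lrg1 was at 489 CPM in A963 and 862 CPM in A965, a ratio of 1.76 (1.64 to 1.90), and was 1.75 in Camp-high cells. Slfn4 was at 80.9 and 146 CPM and Il1r2, a decoy receptor for interleukin 1, at 35.8 and 61.4 CPM. Fpr2 was at 350 and 391 CPM, and its ratio of 1.12 went below 1 in 3 of 18 alternatives. Retnlg, which the rule used, was at 854 and 1747 CPM. Per cell, Retnlg had a median of 6.14 per 10000 in A963 and 7.70 in A965, with highest cells at 134 and 670, so the medians were closer than the sums. Ly6g was lower, at 624 and 440 CPM, within 1.5-fold.

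S100a6 was among the genes furthest apart. It was at 713 CPM in A963 members and 1795 CPM in A965 members, a ratio of 2.52 (2.37 to 2.68), and from 1.78 to 2.79 across alternatives. Its per-cell level ran from 0 to 41.9 per 10000 in A963, with a median of 4.01, and from 0 to 131 in A965, with a median of 12.0, so the cells overlap. The ratio in Camp-high cells was 1.92 (1.87 to 1.98).

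Stefin genes, a mouse cluster of cysteine protease inhibitors, had the largest ratios and the least even counts. Stfa1 was at 5.56 CPM in A963 and 268 CPM in A965, and Stfa2l1 at 22.9 and 159 CPM. The 4 Stfa genes together had a count in 14.4% of 111 A963 members and 51.9% of 289 A965 members, or 11.7% and 40.5% after thinning. In A963, 96.1% of the 152 counts lay in 10 cells and 118 in a single cell; in A965, 51.2% of 4182 counts lay in 10 cells. Across alternatives the Stfa1 ratio ran from 2.03 to 106 and that of Stfa2l1 from 2.37 to 37.6. Cstdc5, another stefin-like gene, was at 319 and 675 CPM, and its ratio of 2.11 became 0.482 at a threshold of 10. These genes are near-identical copies, among which counting may divide reads, so single-gene values are uncertain. In Camp-high cells the share with a Stfa count was 17.5% and 34.3%, or 10.3% and 20.9% after thinning.

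Of the remaining stefin and antiprotease genes, Cstb, cystatin B, was lower in A965, at 68.0 and 33.2 CPM, and Slpi was near even, at 520 and 513 CPM. The other genes the naming rule found higher in A965 were Tmem256, S100a1, Nme2, Ndfip1, Slfn1, Eef1a1 and Tuba1a, at ratios of 1.75 to 2.28. Eef1a1 is a translation elongation factor and Tuba1a an alpha tubulin. All 15 genes of the higher side lay on the same side of 1 in Camp-high cells, 11 of them past 1.5-fold.

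The lower side was weaker in size. Ear2, a ribonuclease of the eosinophil-associated family, was at 236 CPM in A963 and 85.3 CPM in A965, a ratio of 0.361 (0.317 to 0.413). Ly6a2 was at 2323 and 1396 CPM, Laptm5, a lysosomal membrane protein, at 362 and 227 CPM, and Lgals1, galectin 1, at 104 and 57.1 CPM. The others were Cnbp, Rsrp1, Eif1b, Sf1, Dut, Inhba, Mrps15, Hcst, Anxa5, Cenpx and Pgls, at ratios of 0.526 to 0.654. All 15 lay on the same side of 1 in Camp-high cells, but 1, Ear2, was past 1.5-fold there.

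Over all genes compared in both sets, 204 were past 1.5-fold higher in A965 members and 62 in A965 Camp-high cells, with 41 in both, 20.1% and 66.1% of each list. On the lower side there were 297 and 27, with 17 in both, 5.72% and 63.0%. In Camp-high cells 187 of the 204 and 241 of the 297 lay on the same side of 1 as in members. The same-side share over all genes compared was not computed. Neither these counts nor the same-side counts of the named genes are therefore read as agreement between the sets. Over all genes compared in each set, 3.55% were higher in members and 1.01% in Camp-high cells, and 5.81% and 0.681% lower. The overlaps are thus not read as differences particular to the members.

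**Figure D4:**
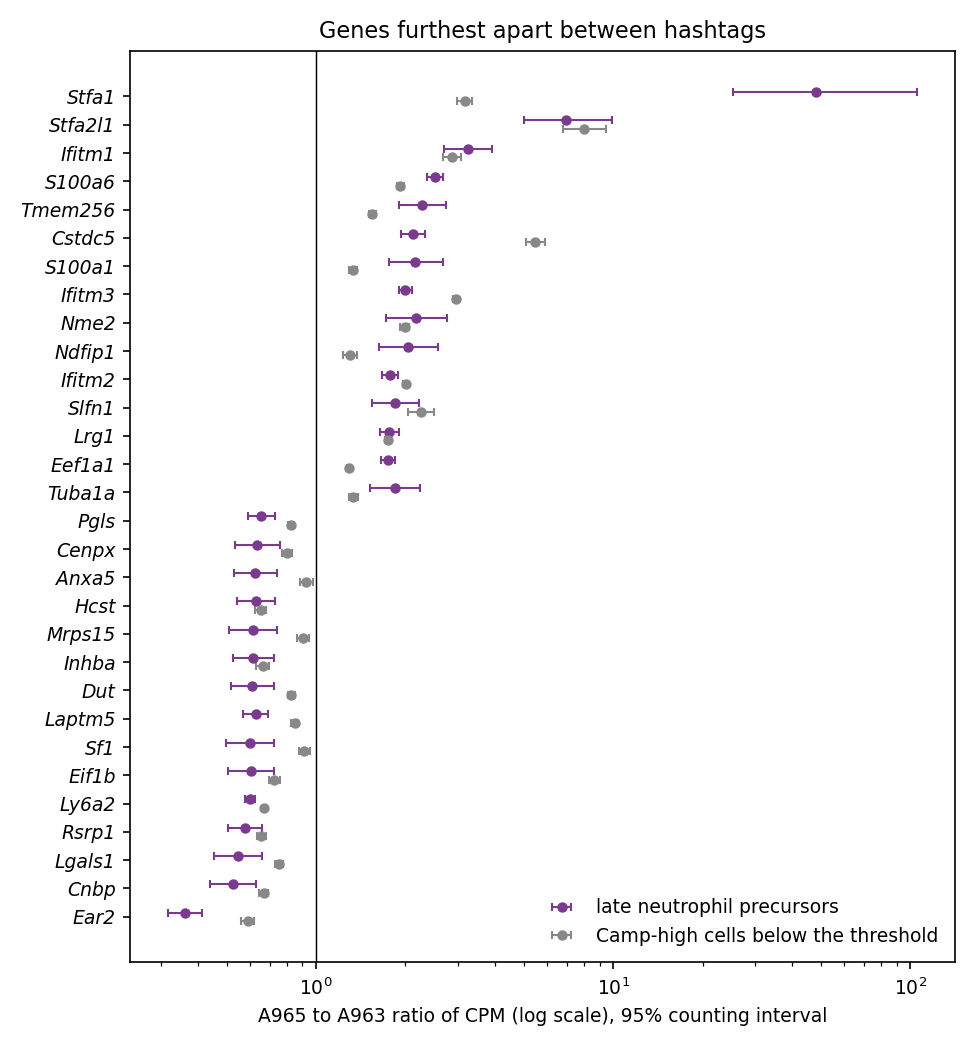
A965 to A963 ratio of CPM (log axis) of the 30 genes the naming rule chose, in members (purple) and in Camp-high cells below the threshold (grey); points are ratios and lines 95% counting intervals, which do not show variation between cells or mice. All 30 grey points lie on the same side of 1 as the purple ones, with Stfa1 widest at 48.2 in members.

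Granule genes were close between the hashtags as classes. The median log2 ratio was -0.14 for secondary granule genes and 0.05 for azurophil genes, against -0.07 over all genes compared. Of 12 secondary granule genes and 6 NADPH oxidase genes, 0 were past 1.5-fold, where 9.36% of all genes compared were. Lists this short can hold 0 at that share, so the 0 is not read as a result. Ltf was at 11219 CPM in A963 and 10304 CPM in A965, and its per-cell median was 112 and 105 per 10000. Camp, a rule gene, was at 59011 and 45169 CPM. Of 8 azurophil genes, 2 were past 1.5-fold higher in A965, and between 1 and 3 were across alternatives. Prtn3 was at 266 and 471 CPM, and Ctsc, the protease that activates the others, was at 2.47 and 10.6 CPM on 4 and 70 counts. Elane was at 325 and 269 CPM. In Camp-high cells 3 of the 8 were past 1.5-fold higher, and the 8 together summed to 5412 and 8534 CPM, against 1139 and 1294 CPM in members.

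G2/M transcripts were more common in A965 members. At 8800 counts each, 50 of 111 A963 members (35.6% to 54.8%) and 182 of 289 A965 members (57.1% to 68.6%) held at least 3 G2/M counts, and 54.1% and 71.6% did unthinned. In the lowest Retnlg plus Mmp9 bin the shares were 53.9% (42.1% to 65.5%) and 82.8% (76.0% to 88.4%). Of 12 G2/M genes, 4 were past 1.5-fold higher, Ccnb1, Ccnb2, Aurka and Cdc20, with a median log2 ratio of 0.42, and between 1 and 6 were across alternatives. Ccnb1, cyclin B1, was at 18.5 CPM in A963 and 59.9 CPM in A965. The S phase share was 46.8% and 46.7%, or 53.2% and 64.4% unthinned, and 0 of 12 S phase genes were past 1.5-fold. Camp-high cells had the higher share in A965 for both scores, 87.0% and 95.5% for G2/M and 84.5% (82.5% to 86.3%) and 92.6% (91.4% to 93.7%) for S phase.

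Genes of the monocyte lineage other than Ly6c2 were low in both hashtags. Of 7 compared, 4 were past 1.5-fold lower, Irf8, F13a1, Ms4a6c and Csf1r, and between 0 and 6 were across alternatives. Irf8 was at 39.5 CPM in A963 and 10.2 CPM in A965, on 64 and 67 counts, and in Camp-high cells at 67.2 and 29.8 CPM. Among 10 transcription factors, 3 were lower, Cebpa, Runx1 and Irf8, with Cebpa, a factor of early myeloid cells, at 15.4 and 3.49 CPM on 25 and 23 counts. The 12 monocyte genes together summed to 2598 and 2846 CPM because Ly6c2 went the other way, at 2438 and 2758 CPM. The part of any monocyte-like cell or RNA in these values was not tested.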

How the data were processed

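Counts per gene and cell were used as the authors deposited them, in 1 table of 10731 cells and 25661 genes from 3′ single-cell RNA sequencing on the BD Rhapsody system with TAS-Seq amplification, per the labels' protocols. Each barcode read carries a molecular identifier, per the labels; the sources used here do not say if the deposited values count molecules or repeated reads, so intervals may be too narrow. The submitters' processing notes name GRCm38, Seurat 4.2.0 and R 4.2.1. The aligner is not given in the sources used here.

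Cells named for a single hashtag were kept at 500 or more genes and 20% or less mitochondrial counts, which left 10528 of 10535. The 190 cells the authors named doublets stayed out of all comparisons, 6 further columns were not used, and Scrublet (scanpy 1.11.5) called 223 of the kept cells. Cell totals ran from 8822 to 140994, so thinning to 8800 counts left out no cell. For each set of cells the counts were added up and expressed as CPM (Python 3.11.15, numpy 2.4.6, scipy 1.17.1, pandas 2.3.3). Ratio intervals are exact conditional binomial intervals, share intervals are Clopper-Pearson intervals and intervals of share ratios are Katz log intervals, all at 95%. The step was tested on simulated data with known fold changes.

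Named genes were the 15 largest log2 ratios in each direction with 100 CPM or more, and detection in 25% or more of the cells, in whichever set was higher, leaving out rule genes, mitochondrial, ribosomal, unnamed and sex-linked genes, together with members of 28 gene lists and the 5 label markers. Of 260 list genes, 4 symbols were not found in the table and were not analysed here. The members and lists were chosen with earlier results of these data known. Symbols were matched to GENCODE M21 for 96.4% of genes. Some members of the lists are not reported here by name.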

Additional observations from a re-analysis of the deposited data

Results flagged for a closer look

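Cells that the authors named doublets were outside every comparison and are listed because they, too, hold cells that meet the rule: 9 of 190, or 4.74% (95% Clopper-Pearson interval 2.19% to 8.80%). Among cells named for 1 hashtag, 406 of 10528 met it, with 2.35% in A963 and 5.19% in A965, both inside that interval. The doublet-named cells thus do not stand apart by this share. Their median was 23610 counts, 9.20 Retnlg plus Mmp9 and 400 Camp per 10000. What these cells are was not tested.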

How the results depend on the processing

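Each hashtag is 1 sample of 1 library, so no result has a replicate check, and thresholds set on measured values fix the counts. Of 18 alternatives, 2 were chosen after seeing the data. No paired analysis was possible because the library holds no replicate of any hashtag. A Retnlg plus Mmp9 threshold of 3 gave member shares of 4.71% in A963 and 8.59% in A965, 112 genes higher and 176 lower in A965, and 31 higher and 36 lower than in Camp-high cells. A threshold of 10 gave 0.742% and 2.37%, a ratio of 3.19, with 604 and 1319 genes between hashtags and 95 and 428 against Camp-high cells. Adding 1 CPM gave 490 and 889, and 104 and 509. A floor of 50 CPM gave 94 higher and 64 lower in A965, thinning before summing 348 and 553, and keeping members with counts of one sex 555 and 723. Median-of-ratios scaling gave 81 higher and 32 lower than in Camp-high cells. Of 1107 named-gene values, 5 crossed 1. Cstdc5 was 0.482 at a threshold of 10, and weighting the hashtags to one mix of 4 bins put Fpr2 at 0.891 and Retnlg at 0.898. In the mix of 4 bins, the highest bin has 1 A963 cell and 20 A965 cells, and that 1 cell is given extra weight. Fpr2 was 0.972 with 3 bins and 0.958 in members under 20 Retnlg plus Mmp9. The cause was not tested.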
